A study of Mus musculus with 12 samples.

Results

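TRBV2, TRBV4 and TRBV5 are 3 variable (V) segments at the upstream end of the mouse T cell receptor beta locus. Every productive beta (TRB) contig whose deposited V label was one of these names was taken from the 6 receptor libraries, which gave 565 of 7257 productive TRB contigs, or 7.79%. TRBV2 had 187 contigs and TRBV5 had 378. No contig carried the label TRBV4, so every value below is for TRBV2 or TRBV5 unless TRBV4 is named.

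The libraries came from CD45+ leukocytes that were sorted from C57BL/6 mice and processed with the 10x Genomics Chromium Single Cell Immune Profiling v2 kit. Brain parenchyma gave 2 libraries of 5xFADTg mice and 2 of NonTg mice, and the meninges, the membranes around the brain, gave 1 library of each genotype. The 5xFAD line carries transgenes under the neuronal Thy1 promoter, forms amyloid plaques and is used as a model of Alzheimer's disease, and NonTg mice lack the transgenes. The gene expression libraries of the same sorts were not analysed here, so the cells are known as T cells by their alpha and beta chains alone, and no marker of tissue or cell type was read. The labels give no age, sex or number of animals per library, so p-values measure the spread between libraries, which may be technical in part.

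Each T cell makes its beta chain by joining 1 V, 1 D and 1 J segment. The third complementarity-determining region (CDR3), the loop that contacts the peptide, spans these joints. It holds the end of the V segment, the start of the J segment and what lies between them after bases are trimmed and added. A cell's beta chain pairs with an alpha chain built from a TRAV and a TRAJ segment, and cells that carry the same pair of chains descend, as a rule, from 1 T cell. Upstream segments such as TRBV2 and TRBV5 lie far from the J segments and are brought to them by contraction of the locus.

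Productive chains were listed for 425 to 2122 cells per library. The listed contigs of a library held 49997 to 128700 unique molecular identifiers (UMIs, tags that mark single cDNA molecules). Between 349 and 1453 cells per library had exactly 1 TRB and at least 1 alpha (TRA) chain, and these paired cells formed 286 to 784 clonotypes per library. A clonotype was the pair of TRB and TRA CDR3 nucleotide sequences within 1 library, and one of 2 or more cells was called expanded. Of 7034 cell barcodes, 21 occurred in more than 1 library. The same TRB CDR3 was found in both libraries at 0 of these 21 barcodes, and 4 member contigs lay at them.

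In build mm10 the 3 segments lie on the plus strand of chromosome 6, with 2 exons each in the GENCODE M21 annotation. TRBV2 (ENSMUSG00000076462.2) spans chr6:41047340-41047995. TRBV4 (ENSMUSG00000107486.1) spans chr6:41059394-41059886, and TRBV5 (ENSMUSG00000076465.2) spans chr6:41062332-41062803, starting 2446 bases after the end of TRBV4. TRBV2 ends 485869 bases before TRBJ1-1 and TRBV5 ends 471061 bases before it. TRBV1 lies 155455 bases upstream of TRBV2, and TRBV3 lies between TRBV2 and TRBV4. The second exons of TRBV2 and TRBV5 were identical at 192 of 286 aligned bases (67.1%). The last 45 bases of the 3 germline transcripts, with those of TRBV10, a segment that is taken up at the end of these results, are printed to show what the germline gives to the CDR3. The capitals start at the codon of the conserved cysteine that opens the CDR3, and TRBV10 has none since no such codon was found at that place in its germline end.
TRBV2: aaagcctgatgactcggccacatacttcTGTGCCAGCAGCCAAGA
TRBV4: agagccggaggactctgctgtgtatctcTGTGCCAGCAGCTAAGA
TRBV5: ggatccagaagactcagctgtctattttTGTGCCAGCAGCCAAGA
TRBV10: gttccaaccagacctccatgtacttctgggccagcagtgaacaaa
TRBV2 and TRBV5 end in the same 17 bases, which code for the residues CASSQ followed by the first bases of the next codon.

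On average TRBV2 and TRBV5 were segments of middle use. Averaged over the 6 libraries, TRBV2 made up 3.78% ± 1.33 of the clonotypes (SD, n = 6), the 13th of 22 TRBV labels, and TRBV5 made up 5.25% ± 1.15 (SD, n = 6), the 9th. In single libraries TRBV2 ranked from 7th (NonTg meninges) to 19th (NonTg parenchyma library 2) and TRBV5 from 5th (NonTg parenchyma library 2) to 14th (5xFADTg parenchyma library 1). On average TRBV5 lay between TRBV12-2 (5.35% ± 0.646) and TRBV16 (5.17% ± 1.11) and TRBV2 between TRBV10 (4.25% ± 1.13) and TRBV31 (3.38% ± 0.572), and these neighbours differed by less than the spread between libraries (SD, n = 6 each). The adjacent segments TRBV1 and TRBV3 made up 4.77% ± 0.797 and 8.19% ± 1.47 (SD, n = 6 each).

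For the parenchyma, the question was how often T cells of 5xFADTg mice used each segment compared with those of NonTg mice. TRBV2 made up 3.81% of 657 and 3.19% of 784 clonotypes in the 5xFADTg parenchyma libraries 1 and 2, against 5.12% of 606 and 2.23% of 449 in the NonTg libraries 1 and 2. The 2 NonTg libraries enclosed both 5xFADTg values. TRBV5 made up 3.50% and 5.74% in the 5xFADTg libraries, against 5.61% and 6.90% in the NonTg libraries, and the groups overlapped. The log2 fold change of 5xFADTg over NonTg was -0.15 for TRBV2 (SE 0.38, adjusted p = 0.949) and -0.40 for TRBV5 (SE 0.30, adjusted p = 0.935), by edgeR's quasi-likelihood test over 118 segments with Benjamini-Hochberg adjustment. No segment passed the threshold (0.0%) by edgeR, where 6 had an unadjusted p under 0.05. DESeq2 called 0, and 0 had an unadjusted p under 0.05 there.

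Counted in cells, the picture for TRBV5 was set by 1 library. TRBV5 made up 2.65% of the paired cells in 5xFADTg parenchyma library 1 and 8.60% in library 2, against 3.57% and 4.57% in NonTg libraries 1 and 2. A single clonotype held 69 of the 125 TRBV5 cells of 5xFADTg library 2, and without it TRBV5 made up 4.05% of that library's other paired cells. Cells in place of clonotypes turned the TRBV5 fold change to 0.47 (adjusted p = 0.849). For TRBV2 the paired-cell shares were 4.15% and 1.79% in the 5xFADTg libraries, against 4.05% and 1.83% in the NonTg libraries, so library 1 was high and library 2 low in both genotypes. Leaving out NonTg library 1 turned the TRBV2 fold change to 0.64 (adjusted p = 0.654). The TRBV5 fold change in clonotypes was -0.10 without 5xFADTg library 1, -0.26 without NonTg library 2 and -0.81 without 5xFADTg library 2.

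**Figure D1:**
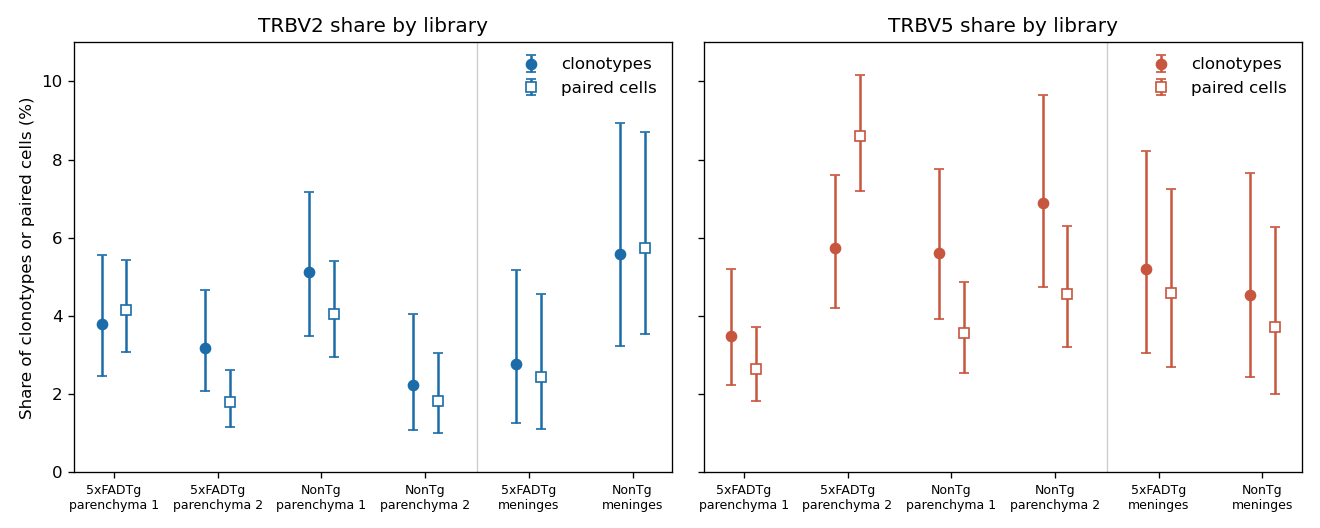
Share of TRBV2 (left) and TRBV5 (right) in each receptor library, as percent of clonotypes (filled circles) and of paired cells (open squares), with 95% exact binomial (Clopper-Pearson) intervals that cover counting error only. TRBV5 stands at 5.74% of clonotypes and 8.60% of paired cells in 5xFADTg parenchyma library 2, the widest gap between both counts.

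The second comparison set the meninges against the parenchyma. TRBV2 made up 2.76% of 326 clonotypes in the 5xFADTg meninges and 5.59% of 286 in the NonTg meninges, against 2.23% to 5.12% in the 4 parenchyma libraries. TRBV5 made up 5.21% in the 5xFADTg meninges and 4.55% in the NonTg meninges, against 3.50% to 6.90% in parenchyma, so both meningeal values lay inside the parenchymal range. With genotype as a covariate the log2 fold change of meninges over parenchyma was 0.15 for TRBV2 (SE 0.35) and -0.13 for TRBV5 (SE 0.29), each with an adjusted p of 0.953 by edgeR over 120 segments. No segment passed the threshold (0.0%), where 7 had an unadjusted p under 0.05. DESeq2 called 0, and 2 had an unadjusted p under 0.05 there. The signs rest on single libraries: without the NonTg meninges the values were -0.33 for TRBV2 and 0.15 for TRBV5, TRBV2 was at -0.07 without NonTg parenchyma library 2, and TRBV5 was at 0.01 without 5xFADTg parenchyma library 2.

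TRBV2 lay below both parenchyma libraries of its genotype in the 5xFADTg meninges and above both in the NonTg meninges. The difference between these tissue contrasts was -0.86 on the log2 scale (SE 0.81, adjusted p = 0.981 by edgeR), and for TRBV5 it was 0.59 (SE 0.64, adjusted p = 0.981), a fit that was added after the data were seen. Over the 6 libraries the TRBV2 share was most like that of TRBV12-2 (Pearson r = 0.63) and TRBV15 (0.46), and the TRBV5 share most like that of TRBV31 (0.76) and TRBV19 (0.76), among 19 segments of at least 50 clonotypes. These 6 points share libraries of unequal depth, and each share lowers the others by construction.

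Most clonotypes of both segments were single cells. TRBV2 had 11 expanded clonotypes among 116 (9.48%, 95% exact interval 4.83% to 16.3%) and TRBV5 had 15 among 163 (9.20%, 5.24% to 14.7%), against 398 of 2829 with any other TRBV (14.1%, 12.8% to 15.4%). Expanded and 1-cell clonotypes were compared within each library. The log2 fold change of expanded over 1-cell clonotypes was -0.59 for TRBV2 (SE 0.46, adjusted p = 0.707) and -0.65 for TRBV5 (SE 0.37, adjusted p = 0.683) by edgeR. Of 120 segments 3 were called (2.5%), all with fewer expanded clonotypes, and neither TRBV2 nor TRBV5 was among them. The called segments were TRAV11 (log2 fold change -2.98), TRAJ18 (-1.70) and TRBV13-2, and 1 of them was left without 5xFADTg parenchyma library 2. Both members kept a negative value under all 14 alternatives, with adjusted p from 0.451 to 0.996 for TRBV2 and from 0.203 to 0.996 for TRBV5. Their size moved with single libraries, to -0.25 for TRBV2 without 5xFADTg parenchyma library 2, -0.36 without NonTg parenchyma library 1 and -0.92 without the NonTg meninges. For TRBV5 it was -0.35 without NonTg parenchyma library 1 and -0.99 without 5xFADTg parenchyma library 2. The TRBV13-2 call has a limit of labelling. The label TRBV13-2 (52 clonotypes) was kept apart from the joint label TRBV12-2+TRBV13-2 (338 clonotypes). A clonotype took the label most common among its cells, and the part of this rule in the call was not tested.

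Expanded TRBV5 clonotypes came from parenchyma alone. The 5xFADTg parenchyma libraries held 4 expanded among 23 and 7 among 45 TRBV5 clonotypes, against 1 among 34 and 3 among 31 in the NonTg parenchyma libraries. In the meninges 0 of 17 TRBV5 clonotypes were expanded in 5xFADTg and 0 of 13 in NonTg mice, together 0 of 30 (95% exact interval up to 11.6%). For the other TRBV segments 15.7% of the parenchymal clonotypes were expanded in 5xFADTg and 15.4% in NonTg, and 6.00% and 10.1% in the 5xFADTg and NonTg meninges. Whether TRBV5 differed from them in its genotype contrast was not tested. TRBV2 had 3 of 25 and 1 of 25 expanded clonotypes in the 5xFADTg parenchyma libraries, against 2 of 31 and 2 of 10 in the NonTg ones, with 0 of 9 in the 5xFADTg and 3 of 16 in the NonTg meninges.

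**Figure D2:**
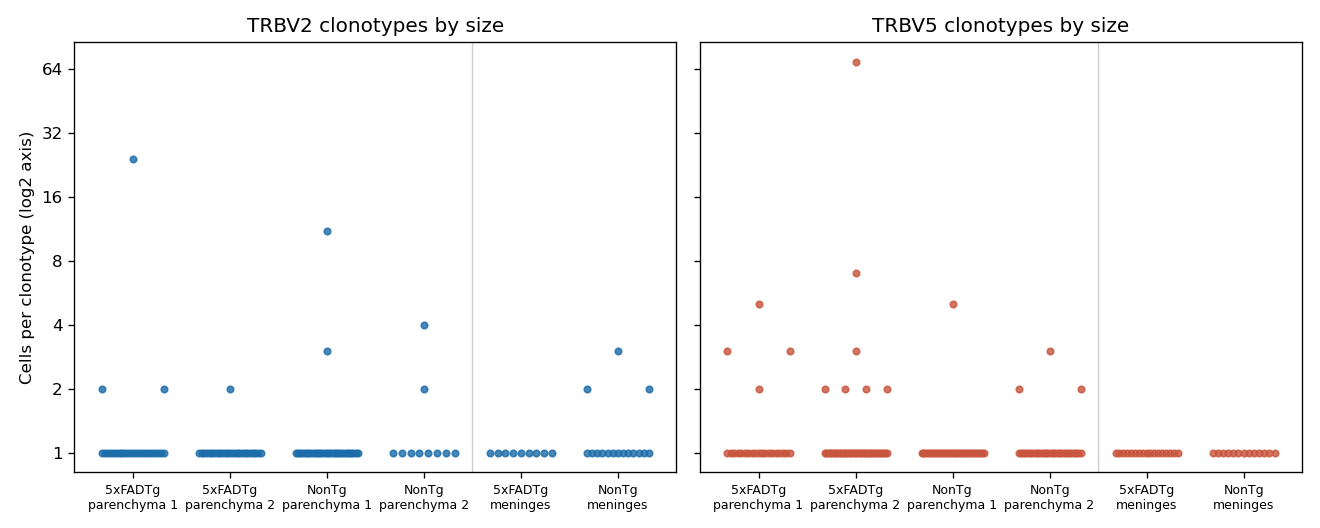
Cells per clonotype for each TRBV2 (left) and TRBV5 (right) clonotype, by library, on a log2 axis; each point is 1 clonotype, and points at the same height are spread sideways. The largest clonotypes are the 69 TRBV5 cells of 5xFADTg parenchyma library 2 and the 24 TRBV2 cells of 5xFADTg parenchyma library 1.

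The CDR3 sequences of the largest clonotypes are printed to show how each joint was made. Lower case marks bases that match the germline V segment at the start or the germline J segment at the end, and capitals mark the junction bases between them, which D bases and added bases supply.
TRBV2 with TRBJ2-5, 24 cells in 5xFADTg parenchyma 1: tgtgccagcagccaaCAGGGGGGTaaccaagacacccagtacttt
TRBV2 with TRBJ2-4, 11 cells in NonTg parenchyma 1: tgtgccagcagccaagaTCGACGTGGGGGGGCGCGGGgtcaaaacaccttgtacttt
TRBV2 with TRBJ2-5, 4 cells in NonTg parenchyma 2: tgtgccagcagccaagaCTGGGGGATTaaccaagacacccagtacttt
TRBV5 with TRBJ1-1, 69 cells in 5xFADTg parenchyma 2: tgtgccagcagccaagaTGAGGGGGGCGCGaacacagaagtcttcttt
TRBV5 with TRBJ1-1, 7 cells in 5xFADTg parenchyma 2: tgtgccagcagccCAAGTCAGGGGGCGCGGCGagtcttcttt
TRBV5 with TRBJ2-5, 5 cells in NonTg parenchyma 1: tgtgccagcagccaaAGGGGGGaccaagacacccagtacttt
TRBV5 with TRBJ1-5, 5 cells in 5xFADTg parenchyma 1: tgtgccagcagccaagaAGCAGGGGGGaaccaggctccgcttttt
All 7 junctions hold a run of G, the base that both mouse D segments are rich in.

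The 69-cell TRBV5 clonotype was the second largest clonotype of 5xFADTg parenchyma library 2, with 4.75% of its paired cells. Its alpha chain joined TRAV7-6 to TRAJ57. A further 13 cells of that library carried the same TRB without a TRA, which brings its beta chain to 82 cells. The 7-cell clonotype of the same library paired with TRAV8-1 and TRAJ13, and the 5-cell clonotypes paired with TRAV7-4 and TRAJ2 in NonTg and with TRAV7-3 and TRAJ40 in 5xFADTg parenchyma. The 24-cell TRBV2 clonotype was the 8th largest of 5xFADTg parenchyma library 1, with 1.99% of its paired cells, and its alpha chain joined TRAV6-6 to TRAJ34. It held 24 of the 50 TRBV2 cells there, and without it TRBV2 made up 2.20% of the paired cells. The 11-cell TRBV2 clonotype paired with TRAV12-1 and TRAJ31, and its 20 junction bases gave a CDR3 of 19 amino acids. The 4-cell one paired with TRAV12-1 and TRAJ32.

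The 3 largest TRBV2 clonotypes were each found in the meninges of the same genotype as well. The TRBV2 receptor with 24 cells in 5xFADTg parenchyma had 1 cell in the 5xFADTg meninges, the receptor with 11 cells had 2 cells in the NonTg meninges, and the receptor with 4 cells had 3. Of 110 distinct TRBV2 receptors 6 occurred in 2 libraries, and of 158 distinct TRBV5 receptors 5 did, against 100 of 2729 with other TRBV. Each of these 11 receptors joined 1 meninges and 1 parenchyma library of 1 genotype. Such receptors count once in each library, so these libraries are not fully independent in the tests over 6 libraries. Seen from the meninges, 6 of 25 TRBV2 clonotypes (24%, 95% exact interval 9.36% to 45.1%) and 5 of 30 TRBV5 clonotypes (16.7%, 5.64% to 34.7%) were found in parenchyma of the same genotype, against 99 of 557 with other TRBV (17.8%, 14.7% to 21.2%). The intervals overlap widely at this depth.

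The other 8 shared receptors were small. The TRBV2 receptors were TRBJ2-2 with TRAV6-6 and TRAJ42, TRBJ2-2 with TRAV13-2 and TRAJ40, and TRBJ1-1 with TRAV17 and TRAJ49, of 2 or 3 cells in total, all in NonTg mice. The TRBV5 receptors also had 2 or 3 cells in total. TRBJ1-1 with TRAV16 and TRAJ9 and TRBJ2-1 with TRAV6-7 and TRAJ43 were found in NonTg mice. TRBJ1-6 with TRAV12-2 and TRAJ4, TRBJ2-3 with TRAV14-3 and TRAJ26, and TRBJ1-3 with TRAV12-3 and TRAJ4 were found in 5xFADTg mice. The largest TRBV5 clonotype, of 69 cells, had no paired cell in the other 5 libraries.

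Among cells with 1 TRB, a beta CDR3 of 15 amino acids with TRBV5 and TRBJ2-5 was the only member CDR3 found in both genotypes. It was built by 2 nucleotide sequences over 3 parenchyma libraries, which are printed to show that they differ at a single junction base (C21T, counted from 1 at the first base of the CDR3).
TRBV5, 1 cell each in 5xFADTg parenchyma 2 and NonTg parenchyma 2: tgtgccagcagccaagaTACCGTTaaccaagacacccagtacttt
TRBV5, 1 cell in NonTg parenchyma 1: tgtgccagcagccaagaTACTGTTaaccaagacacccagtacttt
Both keep all 17 germline V bases. With TRBV2 and TRBJ2-1, a CDR3 of 15 amino acids was made by 2 nucleotide sequences of 1 cell each within 5xFADTg parenchyma library 2. Among cells with 1 TRB, TRBV2 had 118 and TRBV5 had 189 distinct TRB CDR3 nucleotide sequences, and 0 sequences and 1 amino acid sequence occurred under both labels.

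The J segment is the downstream partner of the V segment within the beta chain. TRBV2 was joined most often to TRBJ2-5, in 20 of 116 clonotypes (17.2%, against 10.5% of those with another TRBV), and this share was higher with TRBV2 in 6 of 6 libraries. TRBJ2-5 was not called in the edgeR fit of TRBV2 partners given below. TRBJ2-1 and TRBJ2-7 followed with 12 clonotypes each (10.3%, against 12.2% and 19.9%). TRBV5 was joined most often to TRBJ2-7, in 31 of 163 clonotypes (19.0%, against 19.6%), and to TRBJ1-1 in 26 (15.95%, against 11.2%). All 12 TRBJ segments were used by both. As a group, the TRBJ1 segments made up 34.7% ± 8.02 of TRBV2 clonotypes, against 34.5% ± 2.26 of the rest, and 38.1% ± 9.49 of TRBV5 clonotypes, against 34.4% ± 2.17 (SD, n = 6 libraries each). The differences were 0.177 and 3.70 percentage points (two-sided exact sign-flip permutation p = 1 and 0.438 over 6 libraries). The TRBV2 difference was below 0 without 5xFADTg parenchyma library 1 or 2 or without the NonTg meninges.

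**Figure D3:**
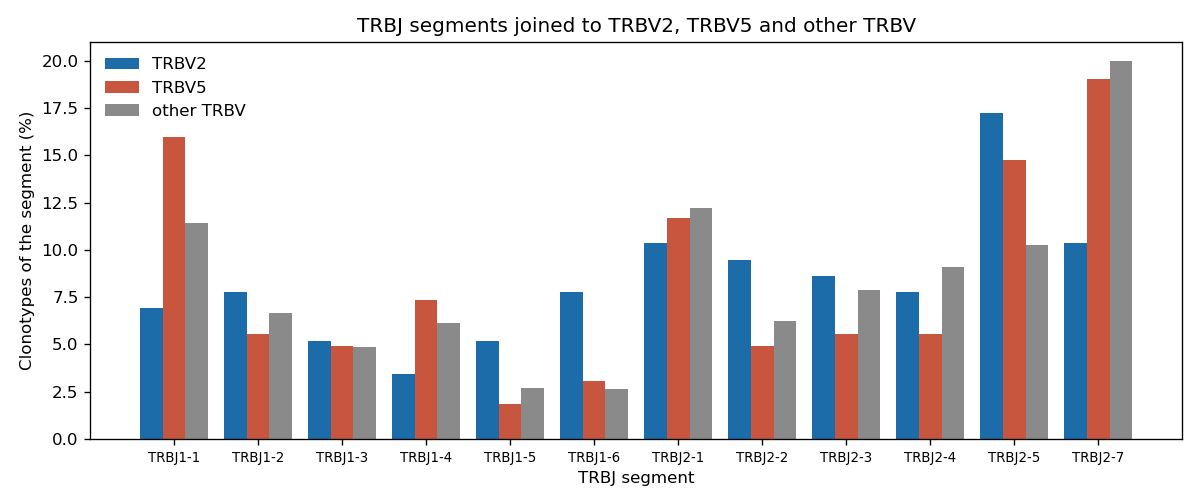
TRBJ segments joined to TRBV2 (116 clonotypes), TRBV5 (163) and other TRBV (2829), as percent of the clonotypes of each, over all 6 libraries. TRBJ2-5 is the tallest TRBV2 bar at 17.2%, and TRBJ2-7 the tallest TRBV5 bar at 19.0%.

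Both segments gave long beta CDR3 loops. The mean TRB CDR3 length of TRBV2 clonotypes was 14.88 and 14.32 amino acids in the 5xFADTg parenchyma libraries, 15.1 and 14.8 in the NonTg parenchyma libraries, 14.8 in the 5xFADTg meninges and 15.1 in the NonTg meninges. In the clonotypes of the same libraries with another TRBV it was between 13.9 and 14.1, so the 2 ranges did not overlap. Over libraries, TRBV2 clonotypes averaged 14.8 ± 0.286 amino acids, against 13.99 ± 0.0751 in the rest (SD, n = 6 each), a difference of 0.834 with TRBV2 longer in 6 of 6 libraries. TRBV5 clonotypes averaged 14.7 ± 0.0919, against 13.99 ± 0.0869 (SD, n = 6 each), a difference of 0.687 and again longer in 6 of 6. Each had a two-sided exact sign-flip permutation p of 0.0312, the smallest that 6 libraries allow, and 0.0625 after adjustment over the 6 values tested, which misses the threshold of 0.05.

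Among the 19 labels with at least 20 clonotypes and a germline end in the annotation, TRBV2 and TRBV5 ranked first and second in mean length, ahead of TRBV1 with 14.3 amino acids. CDR3 loops of 16 or more amino acids made up 31.03% of TRBV2 and 23.9% of TRBV5 clonotypes, against 12.4% with other TRBV, and those of 12 or fewer made up 6.03% and 5.52%, against 15.7%. Of the 116 TRBV2 clonotypes 95 began with CASSQ, as did 116 of the 163 TRBV5 clonotypes and 20 of the 2829 others.

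**Figure D4:**
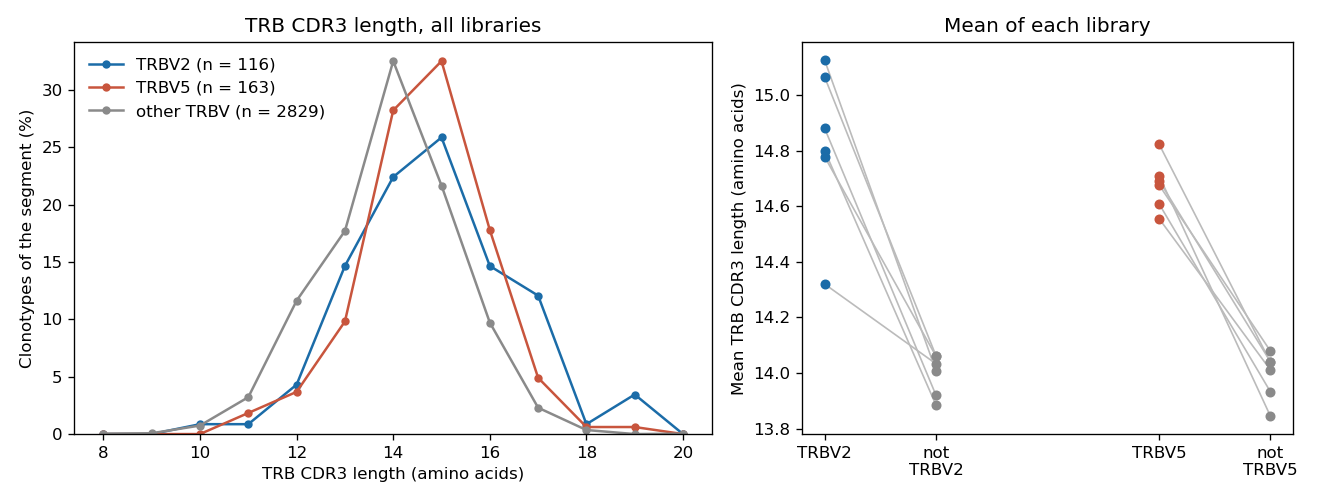
Left, share of clonotypes at each TRB CDR3 length in amino acids for TRBV2, TRBV5 and other TRBV over all libraries. Right, mean length in each of the 6 libraries for clonotypes with the member and for those without it, joined by library; the axis does not start at 0, and the member is longer in 6 of 6 libraries for both.

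The bases of each CDR3 were then divided into those that match the germline V end, the junction, and those that match the germline J, a split that was chosen after the data were seen. TRBV2 clonotypes kept 15.6 ± 0.472 germline V bases, against 13.6 ± 0.117 in the rest, and TRBV5 clonotypes kept 15.4 ± 0.404, against 13.6 ± 0.114 (SD, n = 6 libraries each). Both were higher in 6 of 6 libraries (exact sign-flip permutation p = 0.0312, adjusted over 19 values to 0.0742). The germline of each V sets how many bases can match, 17 for both members and 14 to 21 for the other segments measured. All 17 germline bases were kept in 64 of 116 TRBV2 and 76 of 163 TRBV5 clonotypes. TRBV2 and TRBV5 differed from each other by 0.128 bases (SD of the difference 0.609, n = 6, exact sign-flip permutation p = 0.625).

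Junction lengths of the members were not compared with each other. TRBV5 clonotypes held 10.5 ± 0.228 junction bases, against 10.1 ± 0.1999 in the rest, which was higher in 6 of 6 libraries (exact sign-flip permutation p = 0.0312, adjusted 0.0742). TRBV2 clonotypes held 9.70 ± 0.732, against 10.2 ± 0.220, lower in 4 of 6 libraries (exact sign-flip permutation p = 0.312, adjusted 0.495). TRBV2 clonotypes kept 19.2 ± 1.0004 germline J bases, against 18.3 ± 0.135, higher in 5 of 6 libraries (exact sign-flip permutation p = 0.0938, adjusted 0.198, n = 6 each).

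The alpha chains paired with TRBV2 were drawn from 36 TRAV segments, led by TRAV6-6 with 13 clonotypes (11.2%, against 4.78% beside other TRBV) and TRAV16 with 8 (6.90%, against 5.58%). TRAJ27 led the TRAJ segments with 8 clonotypes (6.90%, against 3.14%), followed by TRAJ7, TRAJ23, TRAJ31 and TRAJ37 with 7 each. TRAJ27 was present beside TRBV2 in 6 of 6 libraries and its share was higher in each, on 8 clonotypes in all. It was not among the segments called below. TRBV5 paired with 40 TRAV segments, led by TRAV16 with 14 clonotypes (8.59%, against 5.47%) and TRAV3-3 with 10 (6.13%, against 5.64%). Its leading TRAJ segments were TRAJ18, TRAJ21, TRAJ22, TRAJ26, TRAJ33, TRAJ37 and TRAJ43, with 8 clonotypes each.

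By edgeR over 99 TRBJ, TRAV and TRAJ segments with library as block, 2 segments (2.02%) were called beside TRBV2, both less used. TRAJ18 was found in 0 of 116 TRBV2 clonotypes, against 6.89% of those with another TRBV (adjusted p = 0.0105), and TRAV11 in 0 of 116, against 5.72% (adjusted p = 0.0226). A count of 0 among 116 allows a share of up to 2.59%, taken as 3 counts over the group. Set against this floor, TRAJ18 was 2.66-fold lower and TRAV11 2.21-fold lower beside TRBV2. These folds depend on the floor and are not minimum differences, since the exact interval for 0 of 116 reaches 3.13%. Both limits pool the clonotypes of all libraries and leave out the spread between libraries. Leaving out either 5xFADTg parenchyma library or NonTg parenchyma library 1 ended both calls (adjusted p from 0.0652 to 0.106 for TRAJ18 and from 0.0668 to 0.172 for TRAV11), as did the parenchyma libraries alone (0.118 and 0.193). Leaving out either meninges library ended the TRAV11 call only (0.0711 and 0.0603).

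Outside these, TRAV6-6 (log2 fold change 1.24, SE 0.44, adjusted p = 0.248) and TRBJ1-6 (1.48, SE 0.55, adjusted p = 0.248) had the smallest p among segments more used beside TRBV2, and TRAV6-6 turned to -0.04 with TMM factors, which moved the median of all 99 segments by -1.26. Beside TRBV5 no segment passed the threshold (0.0%) by edgeR, where 5 had an unadjusted p under 0.05. DESeq2 called 0, and 14 had an unadjusted p under 0.05 there. The smallest p belonged to TRAJ4 (1.90, SE 0.69) and TRAJ43 (1.65, SE 0.63) on the higher side, each with an adjusted p of 0.236. On the lower side they belonged to TRAJ42 and TRAV9-1, found in 0 of 163 TRBV5 clonotypes, which allows a share of up to 1.84%, against 2.58% and 2.44% with other TRBV (adjusted p = 0.236 each).

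TRAJ segments lie in a long row, and those from TRAJ61 to TRAJ31 are nearest the TRAV segments and are reached by the first alpha rearrangements. They made up 59.0% ± 7.35 of TRBV2 clonotypes, against 46.0% ± 3.20 of the rest (SD, n = 6 libraries each). The TRBV2 share was 52.0% in both 5xFADTg parenchyma libraries, 54.8% and 60.0% in the NonTg parenchyma libraries, 66.7% in the 5xFADTg meninges and 68.75% in the NonTg meninges. The difference of 13.02 percentage points had the same direction in 6 of 6 libraries (exact sign-flip permutation p = 0.0312, adjusted 0.0625). For TRBV5 the share was 49.0% ± 7.18, against 46.3% ± 3.53, higher in 3 of 6 libraries (exact sign-flip permutation p = 0.625, n = 6 each). The TRBV2 difference overlaps with the TRAJ18 result above. TRAJ18 lies outside this range and was in 0 of 116 TRBV2 clonotypes, against 6.89% of those with another TRBV. The difference without TRAJ18 was not tested.

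TRAJ18 and TRAV11 together form the invariant alpha chain of iNKT (invariant natural killer T) cells, which see lipids on CD1d and in mice mostly pair it with TRBV13, TRBV29 or TRBV1. Receptors of this iNKT-like form (TRAV11, TRAJ18 and an alpha CDR3 of 15 amino acids) made up 0 of 116 TRBV2 clonotypes and 5 of 163 TRBV5 clonotypes (3.07%, 95% exact interval 1.003% to 7.01%), against 160 of 2829 with other TRBV (5.66%, 4.83% to 6.57%). All 5 were single cells, 3 in 5xFADTg parenchyma library 2 and 2 in NonTg parenchyma library 1. With other TRBV, 166 clonotypes held TRAV11 and 198 held TRAJ18, beside 160 of the iNKT-like form. The 2 calls beside TRBV2 thus count largely the same receptors. Low TRAV11 use was not particular to TRBV2: the label TRBV10 had TRAV11 in 1 of 132 clonotypes, TRAJ18 in 6 and the iNKT-like form in 1. MAIT (mucosal-associated invariant T) cells see vitamin precursors of microbes on MR1, and receptors of their form were taken as TRAV1 with TRAJ33 and 12 amino acids in the alpha CDR3. There was 1 such TRBV2 clonotype, of 1 cell in the NonTg meninges, and 1 such TRBV5 clonotype, of 3 cells in 5xFADTg parenchyma library 1, against 21 of 2829 with other TRBV.

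TRBV2 chains were recovered with fewer UMIs than any other segment of at least 50 paired cells. The median TRB UMI count of TRBV2 cells was 3.5 and 3.0 in the 5xFADTg parenchyma libraries, 4.0 and 3.5 in the NonTg parenchyma libraries, 5.0 in the 5xFADTg meninges and 3.0 in the NonTg meninges. In cells with another TRBV it was 8.0 to 9.0 in every library, so the groups did not overlap. The mean difference was -4.83 UMIs (SD 0.816, n = 6), lower in 6 of 6 libraries (exact sign-flip permutation p = 0.0312, adjusted over 19 values 0.0742). Counting each clonotype once gave a median of 3.75 for TRBV2 and 9.0 for other TRBV. TRB rested on 1 UMI in 9.26% of TRBV2 and 4.62% of TRBV5 paired cells, against 1.84% with other TRBV. The alpha chains of TRBV2 cells had a median of 46.0 UMIs over all libraries, as had those of other TRBV cells. Averaged over library medians, TRA had 55.5 ± 21.1 UMIs in TRBV2 cells, against 53.3 ± 14.1 in the rest, and 51.0 ± 38.1 in TRBV5 cells, against 53.6 ± 12.1 in the rest (SD, n = 6 each, exact sign-flip permutation p = 0.812 for both). TRBV5 cells had TRB medians of 6.5, 7.0, 5.0, 5.0, 8.0 and 10.0 in the same order, lower than the rest in 5 of 6 libraries (exact sign-flip permutation p = 0.125, adjusted 0.238, n = 6).

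TRBV2 cells lacked a TRA contig less often. Of the cells with exactly 1 TRB, 12 of 174 with TRBV2 had no TRA (6.90%) and 63 of 323 with TRBV5 had none (19.5%), against 18.6% of all such cells. Over libraries the mean was 7.63% ± 2.99 for TRBV2, against 16.9% ± 4.96 for the rest (SD, n = 6 each), lower in 6 of 6 libraries (exact sign-flip permutation p = 0.0312, adjusted 0.0742). In the NonTg meninges the gap was narrow, at 9.09% and 9.37%. For TRBV5 it was 18.2% ± 7.33, against 16.6% ± 5.02, higher in 3 of 6 (exact sign-flip permutation p = 0.625, n = 6 each). The UMI and TRA comparisons were chosen after the data were seen, and the part of TRB recovery in the other TRBV2 results was not tested beyond the fits on cells with at least 2 UMIs per chain.

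**Figure D5:**
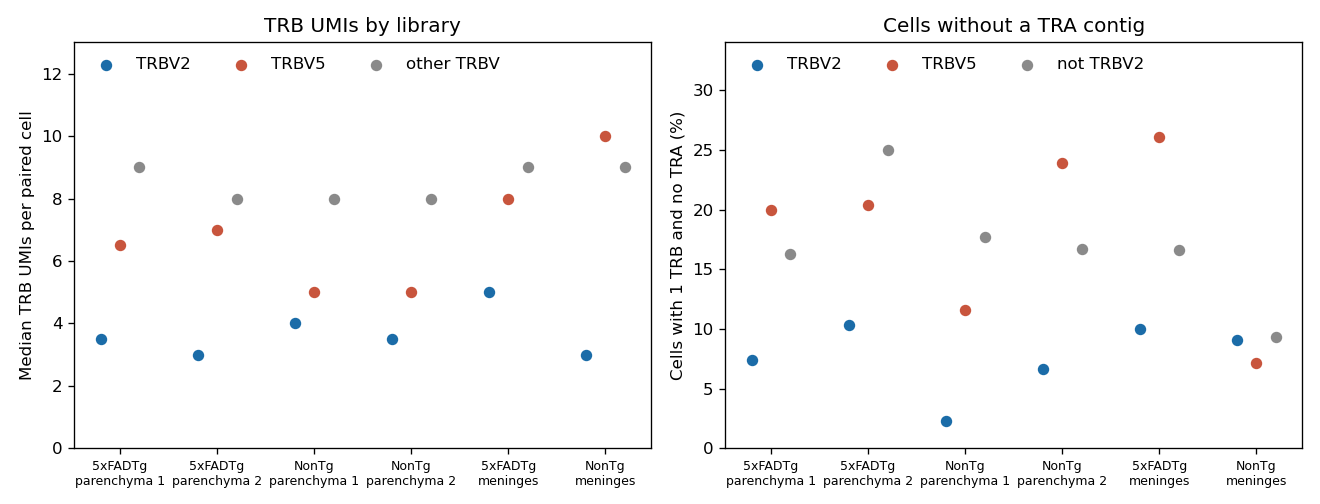
Left, median TRB UMIs per paired cell by library for TRBV2, TRBV5 and other TRBV. Right, percent of cells with exactly 1 TRB that have no TRA contig, for TRBV2, TRBV5 and all cells without TRBV2; TRBV2 lies lowest on the left in 6 of 6 libraries and below the cells without TRBV2 on the right in 6 of 6.

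TRBV4 was the label of 0 of 7257 productive TRB contigs, which allows a share of up to 0.0413%, and of 0 of 19419 listed contigs of any kind. Within a library the limit was 0.137% to 0.699% of the productive TRB contigs. The floor of 3 counts and all intervals here cover counting error only. The annotation lists TRBV4 as a functional V segment, and RefSeq gives Tcrb-V10 as its older name.

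The label TRBV10, which GENCODE and RefSeq both list as a pseudogene, was on 289 productive TRB contigs and 132 clonotypes, or 4.25% ± 1.13 of the clonotypes per library (SD, n = 6). Of 171 distinct CDR3 sequences under that label, 140 began with the 12 bases that TRBV2, TRBV3, TRBV4 and TRBV5 share. The TRBV10 germline end could not be compared in this way. It lacks the cysteine codon that opens a CDR3, so every match to it stopped after 2 bases. At the base after the shared 12, 77 sequences followed TRBV3 and TRBV4 and 42 followed TRBV2 and TRBV5. Matching 14 or more bases, 26 followed TRBV3, 18 followed TRBV4 and 5 followed TRBV2 and TRBV5. After the shared 12 bases the TRBV4 end reads TAA in frame, a stop codon that no productive CDR3 can keep. The counts for TRBV3 and TRBV4 are therefore not measured alike. Of all contigs with the TRBV10 label, 27.4% were not productive, against 4.10% with TRBV2, 7.35% with TRBV5 and 12.4% over all TRB. Which germline segment these contigs carry was not tested, since the deposited lists hold the CDR3 and not the V sequence. For TRBV2 and TRBV5 themselves, 123 of 127 and 221 of 225 distinct CDR3 sequences matched 12 or more of their 17 germline bases.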

How the data were processed

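Sorted CD45+ leukocytes were profiled with single-cell receptor libraries, and the 6 gene expression samples were not used here. The deposited contig lists hold, per the file headers, raw counts of reads and UMIs without normalization, contig length in bases, gene labels, CDR3 sequences and productive status. Cell Ranger 6.0 and build mm10 are named, per the submitters' processing notes. No other step or filter is given in the sources used here. No doublet caller was run, and cells with 2 or more TRB, which can be doublets, were left out of clonotypes.

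Clonotypes per TRBV, TRBJ, TRAV and TRAJ segment were tested in R 4.3.3 with limma 3.58.1 and edgeR 4.0.16, the quasi-likelihood test. Each column's clonotype total was its library size, segments needed 10 clonotypes or more, and the adjusted p threshold was 0.05. D and N copies of TRAV were merged, and near-identical TRAV copies cannot be told apart. Genotype was tested over the 4 parenchyma libraries, tissue over 6 with genotype as covariate, and expansion and partners within library. A fold change of a segment at 0 counts was not printed. Length, TRBJ1 and TRAJ values were compared by two-sided exact sign-flip permutation over 6 libraries. Fits were tested on simulated counts with planted rises in segments of many clonotypes. Lower use and losses to 0 counts were not simulated. DESeq2 1.42.0, TMM factors, other clonotype definitions, cells, a minimum of 2 UMIs per chain and left-out libraries were alternatives. Germline matches used GENCODE M21 transcripts, as the longest common start with the V end and longest common end with the J segment. Python 3.11.15, pandas 2.3.3, numpy 2.4.6, scipy 1.17.1, matplotlib 3.10.9 and Biopython 1.88 were used.

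The segments and lists were chosen with earlier results of these data known. Named were the 3 segments, all segments past the threshold, in each partner fit the 2 TRBJ, 2 TRAV and 2 TRAJ with most clonotypes (with ties) and 2 per direction by smallest p, the 3 largest clonotypes of each member (with ties), receptors in 2 libraries, up to 10 (all 11 are given), CDR3 sequences made in more than 1 way, and the 2 TRBV most alike in share. No fit could be run for TRBV4, which had no contig.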

Additional observations from a re-analysis of the deposited data

Results flagged for a closer look

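The TRBV5 share of paired cells was 8.60% in 5xFADTg parenchyma library 2, far from the next highest of the 6 libraries at 4.59%. The gap made up 0.674 of the whole range, above the critical value of 0.625 for 6 values. Among 32 sets of values checked this was the only one set apart, and about 1 in 20 is set apart by chance. The 69-cell clonotype described above lies in this library.

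Receptor data outside the clonotypes also held the members. There were 8 TRBV2 and 30 TRBV5 contigs that were not productive, and 13 TRBV2 and 55 TRBV5 contigs lay in cells with more than 1 TRB. The last are 6.95% of the productive TRBV2 and 14.6% of the productive TRBV5 contigs, against 11.9% of all productive TRB contigs. In these cells TRBV5 was found most often with the joint label TRBV12-2+TRBV13-2, in 9 cells. That label was also the most used of all TRBV labels, with a mean of 11.1% of the clonotypes per library.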

How the results depend on the processing

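Of 461 alternative values of 45 results, 317 values of single segments or features stayed the same. For fits and receptor features this meant direction and call, and for comparisons added after the data were seen it meant direction alone. No receptor feature was called in the main values, and with 5 libraries none could be. Another 89 stayed near the main value, as counts of calls within 1.5 times or as mean shares within 1 SD. A further 16 counts moved by more than 1.5 times, 22 values lost a call and 17 turned in direction. With cells in place of clonotypes, 1 segment was called for genotype, TRBV5 turned to 0.47 in that contrast, and the TRBJ1 difference of TRBV2 turned to -8.06 percentage points. With at least 2 UMIs per chain, 2 segments were called for tissue (TRBV2 at -0.084) and 1 beside TRBV2. For expansion, TMM factors called 6 segments, DESeq2 called 1, expansion from 3 cells called 1 and TRB alone called 0. Beside TRBV2, TMM factors called 23 and DESeq2 called 6, all lower. Under these scalings the median of all segments lay at -1.47 and -0.88, against -0.21. TRAV6-6 was at -0.038 with TMM factors, and the parenchyma libraries alone called 0. The causes of the changes in this section were not tested.

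Leaving out 1 library at a time gave 1 to 3 calls for expansion, 0 to 3 beside TRBV2, and 0 for genotype, for tissue and beside TRBV5. The genotype value ran from -0.56 to 0.64 for TRBV2 and from -0.81 to -0.10 for TRBV5, the expansion value from -0.92 to -0.25 for TRBV2 and from -0.99 to -0.35 for TRBV5. The TRBV2 tissue value ran from -0.33 to 0.53 and the tissue value of TRBV5 from -0.44 to 0.15. The TRBJ1 difference of TRBV2 ran from -2.17 to 3.34 percentage points and the TRAJ61 to TRAJ31 difference of TRBV5 from -0.679 to 4.10. The TRA UMI difference ran from -3.6 to 5.9 for TRBV2 and from -14.2 to 2.7 for TRBV5, and the difference in cells without TRA for TRBV5 from -0.172 to 2.997 percentage points. The length differences kept their direction, from 0.777 to 0.943 amino acids for TRBV2 and 0.651 to 0.715 for TRBV5, and with 5 libraries no p under 0.0625 can be reached.

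The replicate block over the parenchyma libraries called 0 segments for genotype, with -0.07 for TRBV2 and -0.44 for TRBV5. The labels do not say that equal numbers share an animal or a day, and the deviations of same-numbered libraries correlated at 0.0648 over 124 segments. At this depth a count of 0 in a library allows a share of up to 0.137% to 0.699% of its TRB contigs. A library held 9 to 31 TRBV2 clonotypes, which limits the precision of each share.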
